A study of Mus musculus with 44 samples.

Results

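MFs labelled as lacking Pparg in the myeloid lineage were followed in injured mouse muscle between day 1 and day 4, the interval over which infiltrating monocytes become MFs. The comparison rested on the 8 of 44 arrays whose labels name the KO genotype, the Ly6C+ F4/80low sort and day 4 or day 1, with 4 arrays on each day. KO mice were C57B6/J, PPARg fl/fl, LysM Cre+, so that Cre made from the Lyz2 locus, which is active in monocytes, MFs and neutrophils, removes floxed Pparg sequence in those cells but not in muscle. All mice of both groups were labelled non-treated, received cardiotoxin (CTX) into the tibialis anterior muscle, and had CD45+ cells taken with beads before flow sorting on these antigens. Total RNA of each sort was read on an Affymetrix mouse gene array, and the levels below are deposited log2 values, on which a difference of 1 is a doubling of signal. The other KO groups used here were the day 2 Ly6C+ F4/80low and day 2 Ly6C- F4/80high MFs (5 arrays each), and the C57B6/J WT groups were Ly6C+ F4/80low MFs of day 4 and of day 1 (4 arrays each). The titles number the arrays of a group as biological replicates but name no animals. The SEs and p-values rest on a spread within groups pooled over all 44 arrays and 10 groups, whatever animals or pools the arrays stand for. The groups not compared here, WT day 2 MFs of both sorts with and without rosiglitazone, entered that spread.

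CTX kills muscle fibres, and Ly6C-high monocytes then enter from the blood. They carry inflammatory transcripts at first, clear the debris, and turn into Ly6C-low MFs that support the growth of new fibres. PPARγ, the product of Pparg, is a lipid-activated nuclear receptor that binds DNA with RXR and drives genes of fat uptake and storage, and in repairing muscle it is known for its control of Gdf3, which encodes a secreted factor of the TGF-β family.

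The 8 arrays were first read against their labels. Ly6c1 and Ly6c2, the genes of the Ly6C antigen, share probe sets on this array, and 2 of these showed the same order of groups. The first read 9.96, 10.78, 9.36 and 9.21 at KO day 4, against 12.06, 11.89, 11.88 and 12.26 at KO day 1. Every day 4 array was below every day 1 array, and replicate 2 of day 4 was the highest of its group. The KO day 2 Ly6C+ arrays lay between 11.83 and 12.08 and the KO day 2 Ly6C- arrays between 8.87 and 9.55, so 2 of the 4 day 4 arrays lay within the range of the Ly6C- sort and none reached that of the Ly6C+ sort. Adgre1, the gene of the other sort antigen, read 12.27, 12.37, 12.16 and 12.30 at KO day 4, against 11.19, 11.30, 11.34 and 11.17 at KO day 1, and each day 4 value was above the 12.03 to 12.11 of the KO day 2 Ly6C- F4/80high arrays. Over all 19938 genes each day 4 array correlated more with the mean of the KO day 2 Ly6C- arrays (r between 0.981 and 0.982) than with that of the KO day 2 Ly6C+ arrays (0.961 to 0.965) or of KO day 1 (0.943 to 0.950). These transcript values go against the label Ly6C+ F4/80low at day 4, although the sort used surface antigens, which the arrays do not measure. Day and sort phenotype cannot be told apart in the comparison. The groups are therefore called KO day 4 and KO day 1 MFs below.

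The targeted gene did not read lower in KO arrays. Pparg gave 10.15, 10.43, 10.15 and 10 at KO day 4, against 9.08, 9.16, 9.52 and 9.49 at KO day 1, and the groups did not overlap (difference 0.87 ± 0.14, limma SE, adjusted p = 2.30e-06). WT MFs read 9.86 to 10.03 at day 4, against 9.16 to 9.30 at day 1. Which exons the probe set covers is not stated, so it does not check the deletion. Lyz2, the lysozyme gene that carries the Cre insertion, did check the genotype, with 9.79, 9.07, 9.79 and 9.96 in KO day 4 arrays and 12.81 to 13.15 in WT day 4 arrays. All 8 KO arrays used here lay below all WT arrays of the same days, and Lyz2 did not pass between KO day 4 and KO day 1 (difference -0.07 ± 0.75, adjusted p = 0.936). Csf1r, the receptor for the main MF growth factor, and Cd68, a lysosomal MF protein, averaged 12.14 and 12.84 at KO day 4, against 11.47 and 12.63 at KO day 1.

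**Figure D1:**
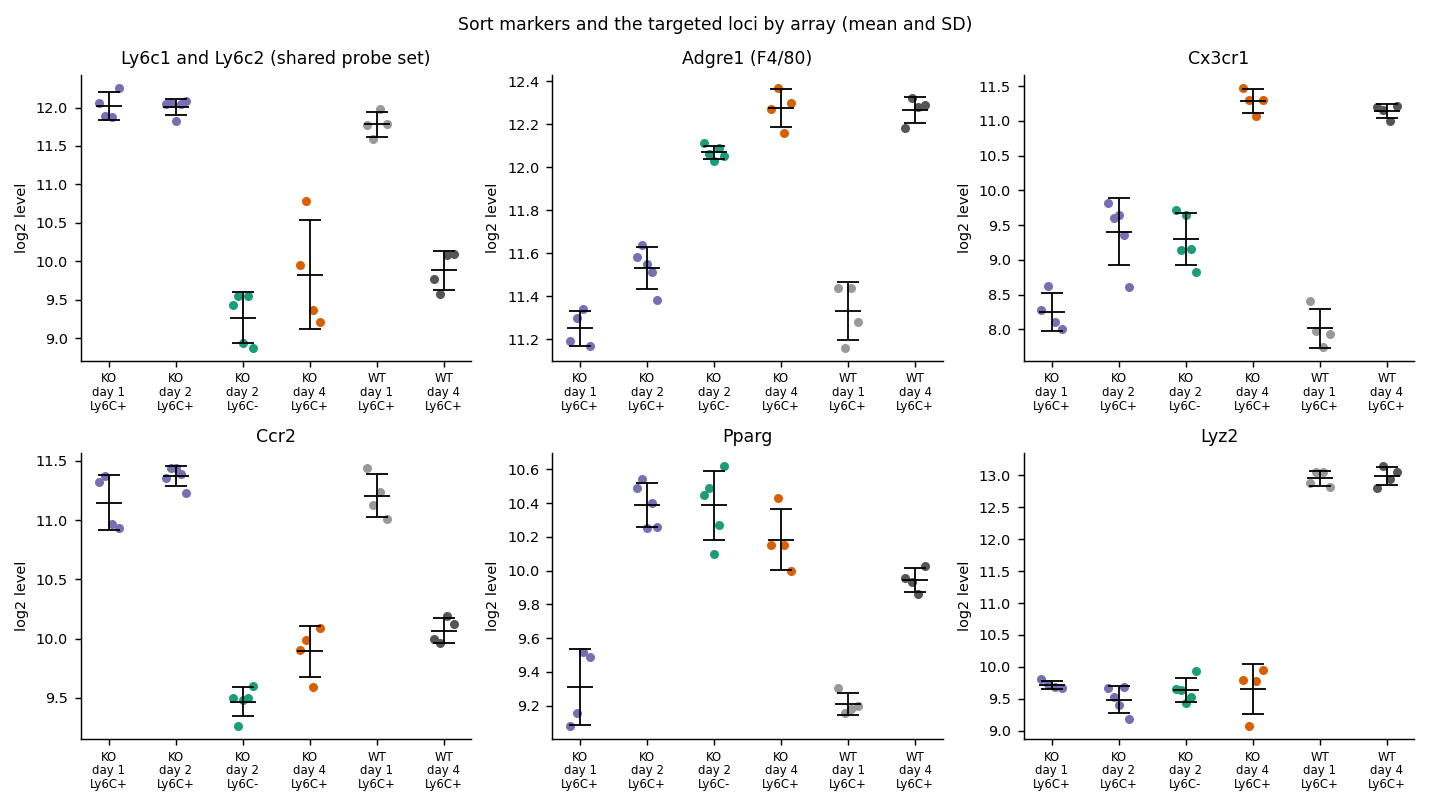
Log2 level of the sort markers (shared Ly6c1 and Ly6c2 probe set, Adgre1, Cx3cr1, Ccr2) and of Pparg and Lyz2 in the KO arrays of days 1, 2 and 4 and the WT arrays of days 1 and 4. Each point is an array and the bars are the mean and SD. At KO day 4 the Ly6c probe set lies below and Adgre1 above all KO day 1 arrays, and Lyz2 is low in every KO group.

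Most genes differed between the days, mostly by little. Of 19938 genes, 5422 (27.2%) were higher and 7389 (37.1%) lower at KO day 4 than at KO day 1 at an adjusted p below 0.05, and the median difference over all genes was -0.13. Genes that passed and at least doubled numbered 1294 (6.49%), and those that passed and at least halved 524 (2.63%). This bound was chosen after the total count was seen. For 11032 genes (55.3%) the 4 day 4 arrays all lay beyond the 4 day 1 arrays in either direction. The largest rises and falls named below were picked among such genes. For them separate groups were a condition for being named and not a result. The small falls were mostly among dim genes: the median difference was -0.24 in the dimmest of 5 equal groups of genes and 0.29 in the second brightest.

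The largest falls included genes of the inflammatory monocyte. Serpinb10, a protease inhibitor of the serpin family, read 4.30, 4.54, 4.37 and 4.63 at KO day 4, against 10.76, 10.69, 10.78 and 10.64 at KO day 1 (difference -6.25 ± 0.19, adjusted p = 1.50e-27). The day 4 values lay below the 25th percentile of all genes, which was 5.66 to 5.91 over the arrays. Vcan, the matrix proteoglycan versican and a classical monocyte transcript, gave 6.81, 6.45, 6.59 and 6.39 at KO day 4, against 12.27, 12.42, 12.33 and 12.21 at KO day 1 (-5.75 ± 0.12). For both genes the 2 groups were far apart and each was tight. Of 15 genes of monocyte identity measured, 14 fell and 13 were at least halved, with a median of -2.56. They included Ifitm6 (-4.21), of the interferon-induced transmembrane family, and Hp (-4.09), which encodes the haemoglobin scavenger haptoglobin. This list and those below were chosen with earlier results of these data known, so their counts describe the lists and test nothing. The shares to read beside every list are those over all genes: 27.2% higher, 37.1% lower, 6.49% at least doubled and 2.63% at least halved. Lists can share members: Gsr and Cd177 of this list are read again in others below. Ccr2, the receptor that brings monocytes out of the marrow, gave 9.91, 9.99, 9.59 and 10.09 at KO day 4, against 11.32, 11.37, 10.97 and 10.93 at KO day 1. Its fall of 1.26 ± 0.13 was small beside that of Vcan, and all day 4 arrays were below all day 1 arrays. Ly6a2, a gene of the Ly6 family (-6.03), and Lrg1, a secreted leucine-rich glycoprotein (-4.27), fell too.

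Transcripts of inflammatory cytokines and chemokines fell together. Of the 22 measured, 19 fell and none rose, 18 were at least halved, and the median was -1.95. Cxcl3, a chemokine that draws neutrophils, read 5.60, 5.26, 6.01 and 6.24 at KO day 4, against 11.19, 11.12, 11.42 and 11.37 at KO day 1 (-5.50 ± 0.30, adjusted p = 4.59e-19). Il6, the acute inflammatory cytokine, gave 3.70, 3.63, 4.00 and 3.83 at KO day 4, against 9.04, 8.82, 9.03 and 8.82 at KO day 1 (-5.14 ± 0.33). No day 4 array came near the day 1 arrays for either gene, and Il6 lay below the 25th percentile on all 4 day 4 arrays. Lif, a cytokine of the IL-6 family (-3.70), and Tnfsf9, the ligand of the costimulatory receptor CD137 (-3.60), fell as well. The day 4 arrays were not alike in the level of this list: its mean was 8.80 and 8.60 in replicates 3 and 4 and 8.38 and 8.39 in replicates 1 and 2, all below the 10.71 to 10.86 of KO day 1.

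Genes of inflammatory activation fell as well. Trem1, a receptor that amplifies inflammatory signalling, gave 5.82, 6.41, 6.84 and 6.16 at KO day 4, against 11.70, 11.63, 11.55 and 11.52 at KO day 1 (-5.29 ± 0.24). Acod1, which makes itaconate in activated MFs, gave 7.53, 7.76, 8.21 and 7.85 at KO day 4, against 11.89, 11.81, 11.98 and 12.06 at KO day 1 (-4.10 ± 0.44). Neither gene had overlapping groups, which was a condition for naming them among the largest falls. Clec4e, a receptor for mycobacterial lipid and dead cells also called Mincle (-4.27), and Olr1, a scavenger receptor for oxidised lipoprotein (-4.36), fell. B3gnt5, a glycosyltransferase of glycolipid synthesis, fell by 4.66. In the list of NF-κB feedback and signalling genes, 14 of 15 fell, 10 were at least halved and the median was -1.36, with Traf1 (-2.66), an adaptor of TNF receptors, and Nfkbie (-2.24), an inhibitor of NF-κB, the furthest. Of 16 immediate early and heat shock genes, 14 fell and 6 were at least halved. The orphan nuclear receptors Nr4a3 (-3.68) and Nr4a1 (-2.07) and the AP-1 member Fosl1 (-2.99) were among them.

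The promoters of these genes were read for the letters of an NF-κB site. The RefSeq promoter table (GRCm38.p6, 250 bases before to 50 after a start site) holds 15614 of the genes measured. The letters GGAATTTCC, on either strand, stood in 58 of them (0.371%), in 10 of the 406 promoters of genes at least halved (2.46%) and in 6 of the 1063 of genes at least doubled (0.564%). Of the 14 cytokine and chemokine promoters in the table, 5 held them. Among halved genes the shares for other NF-κB spellings were smaller: GGACTTTCC stood in 0.371% of all promoters and 0.985% of those of halved genes, and GGGATTTCC in 0.410% and 0.739%. Other letters read were GAAANNGAA of interferon response elements (7.94% of all promoters and 7.39% of those of halved genes), the E-box CACGTG (8.38% and 11.8%) and GGTCANAGG of DR1 elements, where PPARγ and RXR bind (1.59% and 0.493%). Each was counted on either strand, whether or not it overlapped another. A match is only a run of letters and not evidence of binding. The promoters of Cxcl3, Cxcl1 (difference -2.91) and Ifnb1 (-3.10, the gene of interferon-β) are shown because each holds a match, in capitals, whose first base lies 72, 70 and 115 bases before the start site. They lie at chr5:90785851-90786150 (plus strand), chr5:90890995-90891294 (plus strand) and chr4:88522745-88523044 (minus strand).
Cxcl3: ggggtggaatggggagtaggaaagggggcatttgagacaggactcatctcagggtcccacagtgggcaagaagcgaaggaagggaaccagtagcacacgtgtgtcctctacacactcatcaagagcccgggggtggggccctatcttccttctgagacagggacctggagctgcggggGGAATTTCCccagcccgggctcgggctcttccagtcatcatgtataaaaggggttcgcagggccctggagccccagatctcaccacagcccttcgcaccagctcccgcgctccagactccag
Cxcl1: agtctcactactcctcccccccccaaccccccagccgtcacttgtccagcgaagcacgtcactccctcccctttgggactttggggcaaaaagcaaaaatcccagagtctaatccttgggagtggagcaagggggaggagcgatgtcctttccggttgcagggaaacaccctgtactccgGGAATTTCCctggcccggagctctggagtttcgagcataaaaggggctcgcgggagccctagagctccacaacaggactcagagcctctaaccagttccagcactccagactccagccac
Ifnb1: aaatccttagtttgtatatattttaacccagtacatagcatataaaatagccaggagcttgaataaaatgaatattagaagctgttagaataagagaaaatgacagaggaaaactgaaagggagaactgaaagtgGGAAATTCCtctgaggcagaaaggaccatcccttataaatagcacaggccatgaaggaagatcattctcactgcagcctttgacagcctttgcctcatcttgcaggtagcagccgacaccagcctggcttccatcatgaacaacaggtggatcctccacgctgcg

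Most genes of clotting and of low oxygen also fell. F10, coagulation factor X, gave 7.99, 7.74, 8.03 and 7.92 at KO day 4, against 11.84, 11.94, 11.99 and 11.93 at KO day 1 (-4.01 ± 0.16). In the list of coagulation, plasminogen and serpin genes 11 of 14 fell, 1 rose, and the median was -1.11, with Serpinb2, an inhibitor of plasminogen activators (-4.42), F5 (-2.41) and the tissue factor gene F3 (-2.36). Of 22 genes of glycolysis and hypoxia, 16 fell, 9 were at least halved and 1 rose. Among them were the glucose transporter Slc2a1 (-2.14), and the lactate exporter Slc16a3 (-2.15). Slc7a11, the cystine importer that feeds glutathione synthesis (-4.02), and Gsr, glutathione reductase (-2.24), fell, whereas Gpx3, a secreted glutathione peroxidase, rose by 2.41. The glutathione and antioxidant list that holds these 3 genes was mixed, with 8 of 19 higher and 7 lower and a median of 0.12, so that its share of lower genes was close to that over all genes (37.1%).

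**Figure D2:**
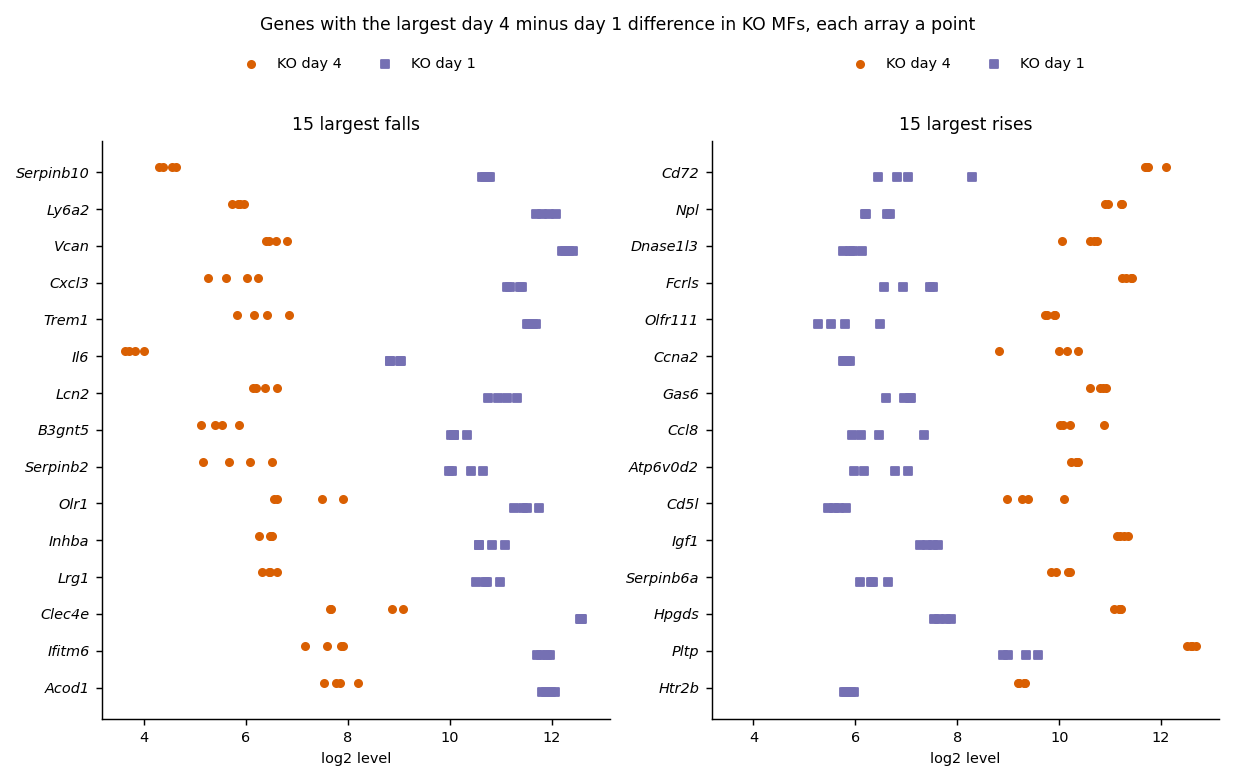
Log2 level of the 15 genes with the largest fall and the 15 with the largest rise among those that passed and whose groups did not overlap. Each point is an array, KO day 4 as circles and KO day 1 as squares. Serpinb10 lies between 4.30 and 4.63 at KO day 4 and Cd72 between 11.68 and 12.09.

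The largest rises included genes known from mature tissue MFs. Cd72, an inhibitory lectin-like receptor, read 11.74, 12.09, 11.73 and 11.68 at KO day 4, against 6.81, 6.45, 7.03 and 8.29 at KO day 1 (4.67 ± 0.23, adjusted p = 3.92e-20). Npl, an enzyme that breaks down sialic acid, gave 11.22, 10.96, 10.89 and 11.24 at KO day 4, against 6.21, 6.69, 6.62 and 6.19 at KO day 1 (4.65 ± 0.13). Fcrls, an Fc receptor-like molecule of tissue MFs, gave 11.42, 11.24, 11.31 and 11.40 at KO day 4, against 6.94, 7.46, 7.52 and 6.56 at KO day 1 (4.22 ± 0.19). The day 1 arrays were the more scattered group for Cd72 and Fcrls, and replicate 4 of day 1 was the highest of its group for Cd72. All 19 measured genes of the MF maturation list, also chosen with earlier results known, rose, 11 of them at least 2-fold, with a median of 1.02. Cx3cr1, the fractalkine receptor of Ly6C-low monocytes and many tissue MFs, gave 11.48, 11.30, 11.07 and 11.30 at KO day 4, against 8.28, 8.63, 8.11 and 8.001 at KO day 1 (3.03 ± 0.20). Hpgds, a prostaglandin D2 synthase, rose by 3.45 and the folate receptor Folr2 by 2.94. Htr2b, a serotonin receptor, rose by 3.40, Serpinb6a, a serpin, by 3.69, and Olfr111, named in the olfactory receptor family, by 4.05.

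Genes for the uptake and digestion of dead cells rose. Gas6, which bridges phosphatidylserine on dead cells to the TAM receptors, read 10.91, 10.60, 10.86 and 10.80 at KO day 4, against 6.61, 7.07, 7.09 and 6.95 at KO day 1 (3.86 ± 0.14, adjusted p = 2.49e-24). Axl, a TAM receptor, gave 10.97, 10.99, 10.66 and 10.90 at KO day 4, against 8.22, 8.34, 7.97 and 9.13 at KO day 1 (2.46 ± 0.15). Neither gene had overlapping groups, which for Gas6 was a condition for naming it among the largest rises. Replicate 4 of day 1 was again the highest of its group for Axl. Mertk, another TAM receptor, rose by 2.01 and Mfge8, a bridge to integrins, by 2.76. In the list of efferocytosis receptors and bridges 13 of 17 rose, 3 fell and the median was 0.66. Of 12 complement genes 9 rose and 2 fell, beside 27.2% and 37.1% of all genes. C1qa, a chain of the C1q opsonin, gave 12.16, 12.49, 11.98 and 12.39 at KO day 4, against 9.20, 9.25, 9.11 and 8.67 at KO day 1 (3.20 ± 0.22), and C1qc rose by 2.37. Cd5l, a secreted scavenger protein also called AIM, rose by 3.79.

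Dnase1l3, an enzyme that digests DNA released by dying cells, read 10.68, 10.05, 10.74 and 10.61 at KO day 4, against 5.90, 5.76, 5.96 and 6.14 at KO day 1 (4.58 ± 0.12, adjusted p = 1.89e-29). Atp6v0d2, a subunit of the proton pump that acidifies lysosomes, gave 10.37, 10.33, 10.34 and 10.23 at KO day 4, against 5.98, 6.17, 7.02 and 6.77 at KO day 1 (3.83 ± 0.20). Both were low on all day 1 arrays and high on all day 4 arrays. Of 22 lysosomal genes 17 rose, 6 of them at least 2-fold, and 2 fell. Lipa, the acid lipase that frees cholesterol from engulfed lipid (1.34), and Glb1, β-galactosidase (1.73), were among those that rose.

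**Figure D3:**
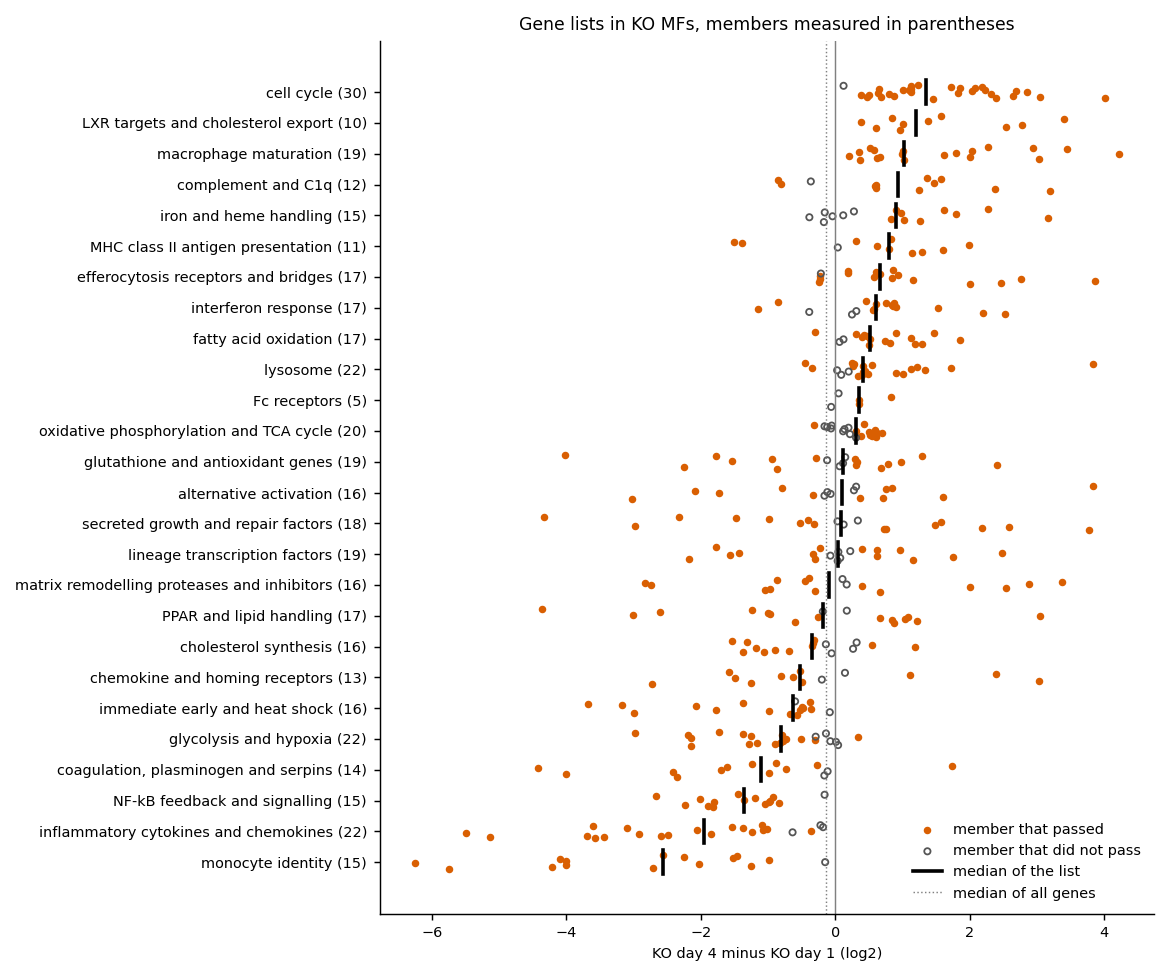
KO day 4 minus KO day 1 difference (log2) of each measured member of 26 gene lists. Filled points passed at an adjusted p below 0.05, open points did not, black bars are list medians and the dotted line is the median of all genes (-0.13). The medians run between -2.56 for monocyte identity and 1.35 for the cell cycle list.

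Lipid genes split by step. Export rose: all 10 measured LXR targets and cholesterol export genes were higher, with a median of 1.20. Pltp, the phospholipid transfer protein, gave 12.61, 12.69, 12.58 and 12.51 at KO day 4, against 9.35, 9.58, 8.99 and 8.90 at KO day 1 (3.40 ± 0.18). The groups were far apart, and Abcg1, a cholesterol exporter, rose by 2.54. Cholesterol synthesis ran the other way, with 10 of 16 genes lower, 2 higher and a median of -0.34, among them Insig1 (-1.53) and Srebf2 (-1.31), which set the rate of that pathway. Fatty acid oxidation rose in 14 of 17 genes, with 1 lower and a median of 0.52, led by Hadh (1.85). The PPAR and lipid handling list was divided, with 7 of 17 higher and 8 lower, beside 27.2% and 37.1% of all genes. Lpl, the lipase that frees fatty acids from lipoproteins, gave 11.00, 11.34, 10.67 and 11.02 at KO day 4, against 7.92, 8.04, 8.27 and 7.64 at KO day 1 (3.04 ± 0.17). Fabp4, a fatty acid carrier and a classical PPARγ target, gave 8.62, 8.71, 8.66 and 8.82 at KO day 4, against 8.03, 7.998, 7.73 and 7.68 at KO day 1 (0.85 ± 0.19, adjusted p = 0.000181). Both genes were higher on every day 4 array than on any day 1 array, the fatty acid receptor Cd36 rose by 0.66 and Gdf3 by 0.75. Of the 8 lower members of the PPAR and lipid handling list, Gpat3, an enzyme of triglyceride synthesis, differed by -3.00 and Hilpda, a lipid droplet protein induced by low oxygen, by -2.61.

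Iron export and matrix genes changed in part. Slc40a1, the iron exporter ferroportin, gave 9.10, 8.93, 8.92 and 8.78 at KO day 4, against 5.69, 6.02, 5.56 and 5.77 at KO day 1 (3.17 ± 0.15). The groups were over 2 log2 units apart, Hfe, which encodes an iron sensor, rose by 2.28, and 9 of 15 iron and heme genes rose with none falling. In the matrix list 6 of 16 rose and 8 fell, beside 27.2% and 37.1% of all genes. Of the inhibitors of matrix metalloproteases Timp2 rose by 3.37 and Timp1 fell by 2.82, and of the proteases Mmp27 rose by 2.88 and Mmp19 fell by 2.75.

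The secreted factors of repair went in both directions, with 7 of 18 higher and 8 lower, beside 27.2% and 37.1% of all genes. Igf1, a growth factor for myoblasts and fibres, read 11.13, 11.27, 11.34 and 11.20 at KO day 4, against 7.40, 7.26, 7.63 and 7.52 at KO day 1, a 13.8-fold rise (3.78 ± 0.19, adjusted p = 9.43e-20). Inhba, the activin A subunit, gave 6.50, 6.25, 6.51 and 6.48 at KO day 4, against 10.58, 10.58, 11.09 and 10.83 at KO day 1 (-4.33 ± 0.44). Vegfa, the angiogenic factor, gave 8.25, 8.57, 9.33 and 9.06 at KO day 4, against 11.68, 11.73, 11.86 and 11.87 at KO day 1 (-2.98 ± 0.42). None of these genes had overlapping groups, which for Igf1 and Inhba was a condition for naming them among the largest changes. Pdgfc, a platelet-derived growth factor, rose by 2.59. The alternative activation list was as divided, with 6 of 16 higher and 5 lower, beside the same shares of all genes. Arg1, the arginase of alternatively activated MFs, gave 7.65, 7.02, 7.53 and 7.65 at KO day 4, against 10.29, 10.38, 10.75 and 10.53 at KO day 1 (-3.02 ± 0.21). Il1rn, the IL-1 receptor antagonist, fell by 2.09 and the chemokine Ccl8 rose by 3.84. Among lineage transcription factors 7 of 19 rose and 7 fell, beside 27.2% and 37.1% of all genes, and the median was 0.05. Of these, Bhlhe41, a repressor of the basic helix-loop-helix family (2.49), and Irf8, which directs monocyte lineage fate (1.75), rose, and Cebpb, an activator of inflammatory and arginase genes (-2.17), fell.

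Cell cycle transcripts rose almost without exception. Of 30 measured, 29 rose, 21 at least 2-fold, none fell, and the median was 1.35. Ccna2, cyclin A2 of S and G2 phase, read 9.99, 8.83, 10.15 and 10.36 at KO day 4, against 5.89, 5.83, 5.75 and 5.79 at KO day 1 (4.02 ± 0.19, adjusted p = 5.76e-21). Ccnb2, a mitotic cyclin, gave 10.50, 9.38, 10.64 and 10.77 at KO day 4, against 7.36, 7.13, 7.26 and 7.35 at KO day 1 (3.05 ± 0.17), and the mitotic kinase Plk1 rose by 2.85. Replicate 2 was the lowest of the day 4 arrays for both cyclins and still above every day 1 array. The mean of the list was 8.45, 7.73, 8.38 and 8.57 at KO day 4, against 6.63, 6.70, 6.77 and 6.74 at KO day 1. Replicate 2 of day 4, the array with the highest Ly6c signal, was the lowest of its group for the list mean. Neither its list mean nor its Ly6c signal was among the single arrays flagged for a closer look below. Without this array all 30 genes rose, 23 at least 2-fold, with a median of 1.55.

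The Ccnb2 promoter (chr9:70421505-70421804, minus strand) is shown as that of a mitotic gene with repeated promoter letters. The CCAAT box, where NF-Y binds, stood in 38.2% of all promoters and in 19 of the 23 cell cycle promoters in the table, and the letters TTTGAA of the CHR element in 15.2% and in 11 of 23. In capitals, in the order of the sequence, are a TTTGAA whose first base lies 167 bases before the start site, CCAAT boxes at 87, 54 and 21 bases before it, on either strand, and a TTTGAA 5 bases into the transcript.
Ccnb2: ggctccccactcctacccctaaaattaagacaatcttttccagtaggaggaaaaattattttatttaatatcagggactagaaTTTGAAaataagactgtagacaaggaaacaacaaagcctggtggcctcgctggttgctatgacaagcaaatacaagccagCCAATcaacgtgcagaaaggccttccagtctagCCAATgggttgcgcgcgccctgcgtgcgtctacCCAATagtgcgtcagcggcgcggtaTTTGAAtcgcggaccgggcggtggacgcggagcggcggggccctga

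Interferon and antigen presentation genes mostly rose, and the interferon counts depended on a single array of day 1. Of 17 interferon response genes measured, 12 rose, 2 fell and 3 were at least doubled, with a median of 0.60. Ifit2, an interferon-induced protein that restricts viral RNA, read 10.55, 10.29, 10.32 and 10.60 at KO day 4, against 7.56, 7.63, 6.95 and 9.52 at KO day 1 (2.53 ± 0.30, adjusted p = 2.83e-09). Mx1, an antiviral GTPase, gave 9.46, 9.29, 9.06 and 9.47 at KO day 4, against 7.95, 7.33, 6.59 and 9.29 at KO day 1 (1.53 ± 0.35), with overlapping groups. Replicate 4 of day 1 was the highest of its group for both. The mean of the list was 10.39, 10.30, 10.25 and 10.43 at KO day 4, against 9.62, 9.40, 9.11 and 10.67 at KO day 1. Without replicate 4 of KO day 1, 14 genes rose, 2 fell, 9 were at least doubled and the median was 1.06. Oasl1, an inhibitor of interferon production, was lower at day 4 (-1.14).

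Ciita, the master regulator of MHC class II, read 8.94, 8.92, 9.06 and 8.81 at KO day 4, against 6.99, 7.03, 6.93 and 6.82 at KO day 1 (1.99 ± 0.13). H2-Eb1, an MHC class II chain, gave 11.59, 12.02, 11.81 and 11.85 at KO day 4, against 10.37, 10.16, 10.14 and 10.18 at KO day 1 (1.61 ± 0.23). Neither gene had overlapping groups. Of the 11 genes of the class II list 8 rose and 2 fell, those that fell being Cd86 (-1.50) and Cd80 (-1.38), the ligands of the T cell receptor CD28.

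The day 2 arrays split the interval. KO day 2 Ly6C+ MFs differed from KO day 1 in 1723 genes (8.64%), and KO day 4 MFs from KO day 2 Ly6C+ MFs in 8937 (44.8%) and from KO day 2 Ly6C- MFs in 4950 (24.8%). The first count was the least steady: it was 1042 without replicate 1 and 1037 without replicate 4 of day 1, 948 without replicate 1 and 969 without replicate 2 of day 2, and 3542 with the replicate number as a block. These comparisons share arrays with that of day 4 and day 1, so their values are given side by side and not as separate support. Between day 1 and day 2 the Ly6C+ MFs already had lower Il6 (-1.77) and Lrg1 (-2.04) and higher Cx3cr1 (1.15), Fcrls (1.94) and Gas6 (1.32), whereas Ccna2 (0.04), Dnase1l3 (-0.13), Serpinb10 (0.19) and Clec4e (-0.20) did not pass. Against KO day 2 Ly6C- MFs, KO day 4 MFs had lower Cxcl3 (-3.60), Clec4e (-3.24) and Arg1 (-3.29) and higher Dnase1l3 (5.08), Ccnb2 (2.55), Cd72 (2.21) and Cx3cr1 (1.99). Igf1 (0.18), Gas6 (0.18), Hpgds (0.32) and Atp6v0d2 (0.10) did not pass between those groups. The cell cycle list averaged 6.63 to 6.77 in KO day 1 arrays, 6.76 to 6.89 in KO day 2 Ly6C+ arrays, 7.50 to 7.73 in KO day 2 Ly6C- arrays and 7.73 to 8.57 in KO day 4 arrays. The cytokine list ran down in the same order of groups, at 10.71 to 10.86, 10.14 to 10.54, 9.34 to 9.89 and 8.38 to 8.80.

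**Figure D4:**
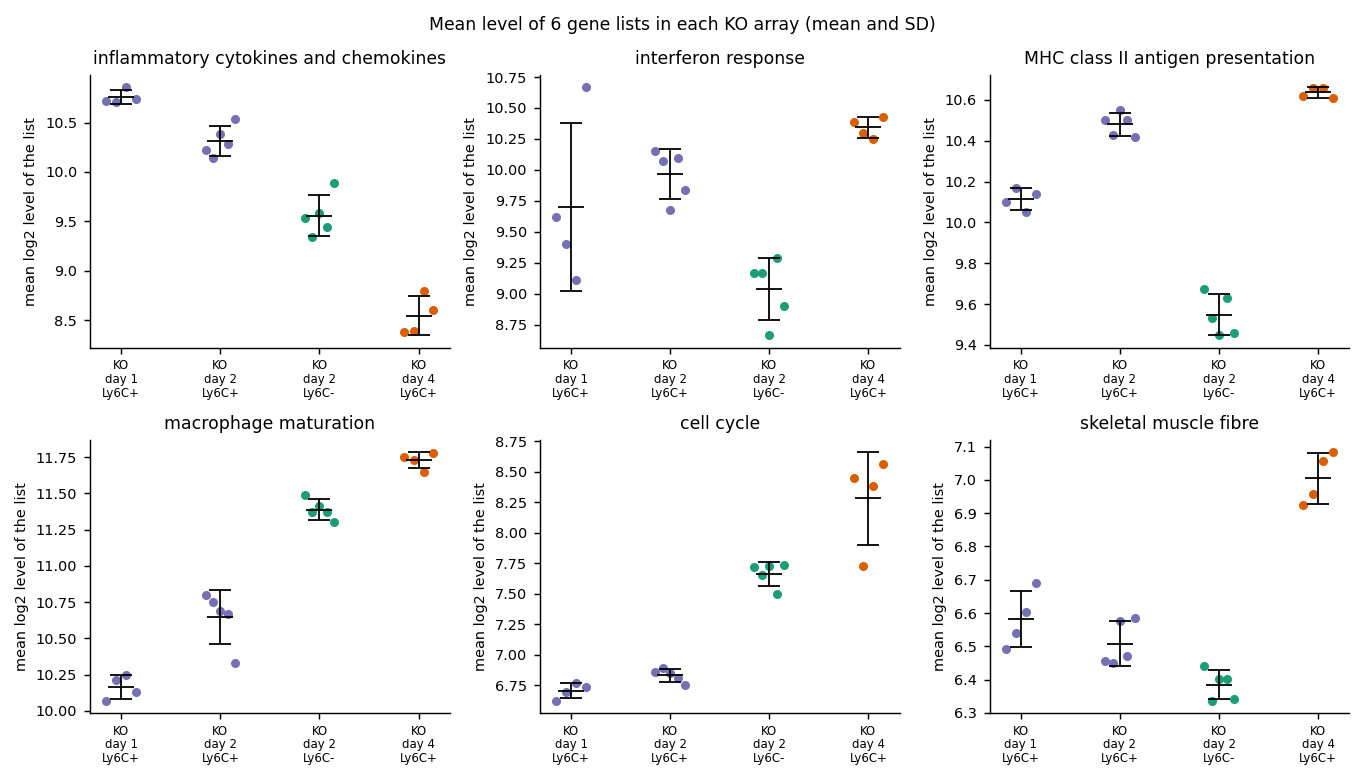
Mean log2 level of 6 gene lists in each KO array of day 1, day 2 (Ly6C+ and Ly6C-) and day 4. Points are arrays and bars are the mean and SD. The cytokine list steps down and the cell cycle list up across the groups, while the MHC class II list is lowest in the day 2 Ly6C- arrays.

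Interferon and class II genes did not follow that order. The interferon list averaged 9.11 to 10.67 in KO day 1 arrays, 9.68 to 10.15 in KO day 2 Ly6C+ arrays, 8.66 to 9.29 in KO day 2 Ly6C- arrays and 10.25 to 10.43 in KO day 4 arrays. The class II list averaged 10.05 to 10.17 in KO day 1 arrays, 10.42 to 10.55 in KO day 2 Ly6C+ arrays, 9.45 to 9.67 in KO day 2 Ly6C- arrays and 10.61 to 10.66 in KO day 4 arrays. The KO day 2 Ly6C- and Ly6C+ arrays share no array with the comparison of day 4 and day 1. Across all genes the 2 differences correlated at r = 0.748 (Spearman 0.691). Shared signs were not counted over all genes, so the sign counts below, of genes picked for a large change, have no share to be read against. Over all 19938 genes, 327 passed and at least doubled in Ly6C- over Ly6C+, and 178 passed and at least halved. Of the genes at least doubled between KO day 1 and day 4, 21.5% were among those 327 and made up 85.0% of them. Of those at least halved, 22.5% were among the 178 and made up 66.3% of them. Of the 1818 genes at least doubled or halved over the interval, 1673 had the same sign between the sorts of day 2 and 145 the opposite sign, 40 of which passed there. These 40 included Ciita (1.99 at KO day 4 over day 1, -1.05 in Ly6C- over Ly6C+ at day 2), H2-Aa (1.15 and -1.49), H2-Ab1, H2-Eb1, Ifit2 and Axl. Cxcl9, a chemokine induced by interferon-γ (3.30 and -0.92), and Gbp4, an interferon-induced guanylate-binding protein (2.62 and -0.96), were named after their values were seen. Dnase1l3 was among them too (4.58 and -0.37), but its day 2 difference and that of Saa3 did not pass after quantile normalization. Cxcl9 read 10.61, 10.62, 10.80 and 9.48 at KO day 4, against 6.99, 6.78, 6.84 and 7.72 at KO day 1. Replicate 4 was the lowest of day 4 and the highest of day 1, and the groups did not overlap. In the other direction Arg1 (-3.02 and 0.96), the acute-phase gene Saa3 (-2.96 and 0.58) and the Notch ligand Jag1 (-1.42 and 1.16), the last pair named after their values were seen, were lower at KO day 4 and higher in the Ly6C- MFs of day 2.

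The same interval was measured in WT MFs on 8 arrays that the KO comparison does not use. There 9676 genes passed (48.5%), and across all genes the KO and WT differences correlated at r = 0.969 (Spearman 0.907, genes not being independent replicates). Genes at least doubled in both genotypes numbered 1106, which is 85.5% of those of KO and 88.7% of those of WT. Genes at least halved in both numbered 497 (94.9% of those of KO and 77.7% of those of WT), and all 1818 KO genes of either kind had the same sign in WT. Shared signs were not counted over all genes, so this count, of genes picked for a large change in KO, has no share to be read against. Igf1 differed by 3.78 in KO and 3.90 in WT, a difference of -0.12 with a 95% interval of -0.68 to 0.43. For Gdf3 the values were 0.75 in KO and 1.17 in WT (-0.42, interval -0.80 to -0.04, adjusted p = 0.997), and for Il6 -5.14 in KO and -5.97 in WT. An adjusted p above the threshold does not show equal changes: the SE of the KO minus WT difference had a median of 0.15.

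Only 3 genes passed in the test of the KO minus WT difference itself (0.015%), and 702 were below an unadjusted p of 0.05. The latter is fewer than that threshold gives by chance over 19938 genes if none differed. With the replicate number as a block within each genotype, Hebp1 alone passed, and the adjusted p was 0.0904 for Fam234b and 0.0501 for Lrrc39. Hebp1, a haem-binding protein, read 10.15, 10.03, 10.11 and 10.07 at KO day 4, against 9.16, 8.87, 9.42 and 9.19 at KO day 1. WT arrays gave 9.73, 9.58, 9.64 and 9.62 at day 4, against 6.67, 6.68, 6.91 and 6.72 at day 1. KO MFs were thus above WT MFs on both days, with the wider gap on day 1, and the change was 0.93 in KO and 2.90 in WT (difference -1.97 ± 0.35, adjusted p = 0.00907). Fam234b, a membrane protein gene, gave 8.53, 8.64, 8.56 and 8.61 at KO day 4, against 8.08, 8.38, 8.43 and 8.30 at KO day 1, and changed by 0.28 in KO and 1.12 in WT (-0.84 ± 0.13, adjusted p = 0.00131). Lrrc39, known for its part in the sarcomere of muscle, gave 5.75, 5.79, 5.81 and 5.73 at KO day 4, against 5.99, 5.76, 5.86 and 5.85 at KO day 1, and changed by -0.09 in KO and 0.64 in WT (-0.73 ± 0.10, adjusted p = 0.000224). Lrrc39 was dim in these KO arrays, close to the 25th percentile of all genes. Hebp1 (bases 135137519 to 135168215) and Fam234b (135196880 to 135236242) lie on chromosome 6 of GRCm38.p6, as does Pparg (115360879 to 115490404), and Lrrc39 lies on chromosome 3.

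**Figure D5:**
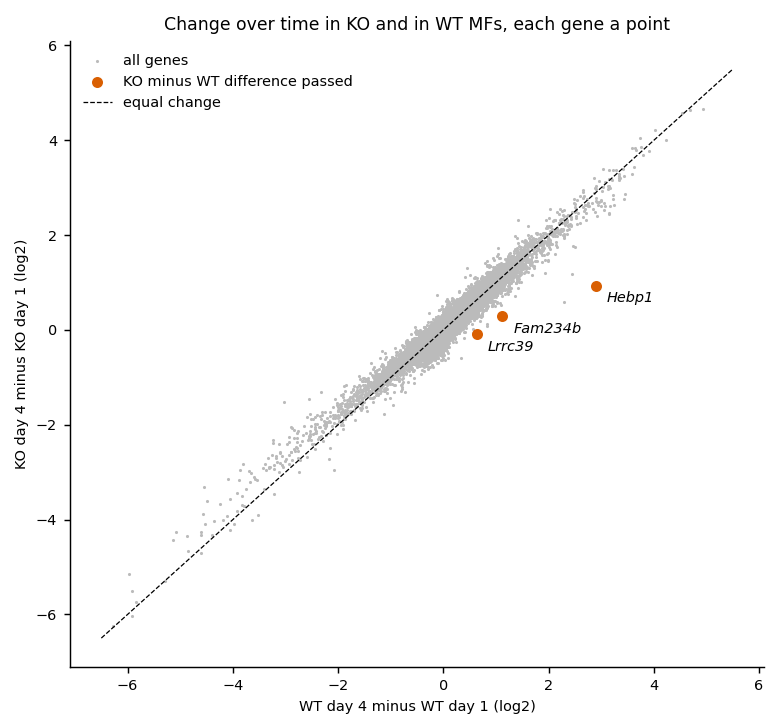
Day 4 minus day 1 difference (log2) of each of 19938 genes in KO MFs (vertical) against WT MFs (horizontal). The dashed line marks equal change, and the 3 genes that passed in the test of the KO minus WT difference, Hebp1, Fam234b and Lrrc39, lie below it.

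Markers of other cells were read in the same arrays. In the skeletal muscle fibre list 9 of 17 genes rose and 4 fell, and its mean was 6.92 to 7.08 at KO day 4, against 6.49 to 6.69 at KO day 1. Myl1, a myosin light chain of fast fibres, gave 8.86, 8.61, 9.24 and 9.15 at KO day 4, against 5.62, 5.79, 6.15 and 6.32 at KO day 1 (2.996 ± 0.18). The groups did not overlap, and Des, the muscle intermediate filament desmin (1.38), and Acta1, skeletal actin (0.98), rose as well. In the fibroblast list 4 of 11 rose and 2 fell, with the matrix genes Postn at 1.86 and Dcn at 1.15, and in the myoblast list 4 of 11 rose and none fell, with medians of 0.04 and 0.05. Over all genes 27.2% rose, so neither count stood far from that share. Of 17 neutrophil genes 15 fell and 1 rose, and the list mean was 6.34 to 6.40 at KO day 4, against 7.43 to 7.60 at KO day 1. Lcn2, which encodes an iron-siderophore binder of neutrophils that MFs also make, read 6.14, 6.60, 6.37 and 6.19 at KO day 4, against 10.95, 10.76, 11.13 and 11.31 at KO day 1 (-4.71 ± 0.25). The decoy IL-1 receptor Il1r2 (-3.15), Cd177 (-2.56) and S100a8 (-2.21) were among the others that fell.

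The lymphoid lists were mixed, and over all genes 27.2% rose and 37.1% fell. Cd4, the T helper co-receptor, gave 8.78, 8.28, 9.04 and 8.35 at KO day 4, against 5.99, 6.10, 6.09 and 6.32 at KO day 1 (2.49 ± 0.12), while 2 of the 14 T and NK cell genes rose in all and 4 fell. Of 9 B cell genes 3 rose and 4 fell, with a median of -0.11. Blnk, a signalling adaptor (2.52), and Cd79b (1.69) had the largest differences of that list, and Cd79a, the partner of Cd79b in the B cell receptor, fell by 0.41. In the endothelial list 9 of 10 genes fell, none by as much as 2-fold, with Emcn at -0.94. The part of muscle, stromal and neutrophil RNA in the differences given above was not tested. In sorted populations of this kind, fewer cells of a type and less RNA per cell cannot be told apart.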

How the data were processed

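The 44 arrays of the series came as a single table of 35556 probe sets. Per the labels the authors processed them with RMA, and the deposited values are on a log2 scale (1.46 to 13.6, none missing, array medians 6.64 to 6.77); how RMA was set up is not given in the sources used here. Probe sets were named through the platform's annotation table: 21789 had 1 gene symbol, 1621 several and 12146 none. Probe sets with 1 symbol gave 19938 genes, with the highest-mean probe set of a gene kept (999 genes had several), and 19856 symbols matched the RefSeq gene table. The array number limits the precision, since arrays give no read depth.

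Group means were fitted to all 44 arrays with limma 3.58.1 in R 4.3.3 (lmFit, eBayes, default settings, 34 residual degrees of freedom), which gave differences, SEs and p-values adjusted by Benjamini-Hochberg over all genes; a gene passed at an adjusted p below 0.05. The fit was tested on simulated data with 19938 genes for KO day 4 and KO day 1. The noise was independent and normal, and a small share of genes was changed by exactly 2-fold or 4-fold. The fit recovered 98% of 2-fold and 100% of 4-fold changes, with 3.41% false calls. Most real genes differed, mostly by little, so these shares need not hold for the real counts. The genes named were the 15 largest rises and 15 largest falls that passed with groups that did not overlap, a few set genes, up to 4 members of each list with the largest passing difference, and genes passing in the KO minus WT test; others are said to be named after their values were seen, except genes named for a promoter match or for opposite signs. Members, gene lists and tests were chosen with earlier results of these data known. Replicate numbers did not pair the arrays of KO day 4 and KO day 1: deviations of same-numbered arrays correlated between -0.14 and 0.15, and 0 of 4 correlated best with its own number. Array correlations ran between 0.935 and 0.996 and no 2 arrays were identical. Promoters were searched on both strands. Alternatives covered scaling, filters, probe set choice, variance model, block and left-out arrays. Figures were drawn with matplotlib 3.10.9.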

Additional observations from a re-analysis of the deposited data

Results flagged for a closer look

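In 3 of 90 groups of 4 arrays tested, a single array lay far from the others, where chance gives about 1 in 20. For Inhba at KO day 4 replicate 2 read 6.25 and the others 6.48 to 6.51. For Cd72 at KO day 4 replicate 2 read 12.09 and the others 11.68 to 11.74. For Cxcl9 at KO day 4 replicate 4 read 9.48 and the others 10.61 to 10.80. The change between day 4 and day 1 passed in the test of the KO minus WT difference for Hebp1 (-1.97), Fam234b (-0.84) and Lrrc39 (-0.73), and for Hebp1 alone with the replicate number as a block.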

How the results depend on the processing

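The number of genes that passed between KO day 4 and KO day 1 was 12811, and it stayed between 10257 (quantile normalization) and 14027 (KO arrays alone) under every alternative run, and between 10757 and 12539 with an array left out. Genes at least doubled stayed between 1042 and 1368 and those at least halved between 510 and 658. The share of higher genes among those that passed was 42.3%, and 50.6% with dim genes left out. With the replicate block 12304 genes passed. Of the 120 named genes that passed, 119 passed in the same direction under every alternative run. The exception was Fam234b, at 0.00 after quantile normalization and 0.21 without replicate 1 of KO day 1. Of the named genes that did not pass, Lyz2 (-0.07) ranged between -0.17 and 0.12 with a KO array left out, being above 0 without replicate 2 of KO day 4, and Lrrc39 (-0.09) gave 0.0529 after quantile normalization. The test of the KO minus WT difference gave 5 genes with only the arrays of the groups compared, 5 with the day 1 and day 4 arrays of both genotypes (an alternative added after the data were seen), 1 with the replicate block, where Fam234b and Lrrc39 were lost, and 3 to 5 with an array left out. KO day 2 Ly6C+ against KO day 1 gave 3542 genes with the replicate block, 3105 with the KO arrays alone and 948 to 2313 with an array left out, replicates 1 and 4 of day 1 and 1 and 2 of day 2 moving it by over 1.5 times (1042, 1037, 948 and 969). Replicate numbers of the day 2 Ly6C- and Ly6C+ arrays correlated between 0.04 and 0.29, and 4 of 5 correlated best with their own number. All 40 genes of opposite sign passed there with the replicate block, and 35 to 40 over all alternatives run. The 40 were picked by the fit without the block, so no alternative could add genes to them. The causes were not tested. The small number of arrays and dim probe sets limit what could be seen.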
